A study of Mus musculus with 9 samples.

Results

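NF-kB is a family of dimeric transcription factors that is held in the cytoplasm by inhibitor proteins and released when a receptor for an inflammatory signal is engaged. Receptors of the TNF receptor family recruit adaptors and the IKK kinases, which mark the inhibitors for destruction in the canonical arm, while the kinase NIK drives processing of the Nfkb2 precursor in the non-canonical arm. In brain tissue the pathway is known from microglia, astrocytes and endothelium, and it is also active at a low level in neurons. The 10 genes described here are 2 receptors (Tnfrsf25 and Tnfrsf1a), 4 of the 5 Rel family genes (Nfkb1, Nfkb2, Rela and Relb), 3 inhibitors (Nfkbia, Nfkbib and Nfkbiz) and the feedback enzyme gene Tnfaip3. They were chosen by name, with the difference between the groups in these same libraries known, so every value of that difference for them is a description without a test. All 10 were among the 14592 named genes of the table deposited by the authors and among the 15340 genes tested from the transcript counts.

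The tissue sequenced was the mediobasal hypothalamus (MBH), the part of the hypothalamus around the arcuate nucleus, of wild-type C57Bl/6 male offspring at P21, the day of weaning. Dams drank plain water (CTRL) or water holding 1% carboxymethyl cellulose (CMC) and 1% polysorbate 80 (P80), both emulsifiers used in processed food (Emul). The emulsifiers were given from before mating until weaning, and the sires were wild-type mice on chow. The 4 CTRL libraries came from 4 litters and the 5 Emul libraries from 5, according to the methods, and neither the methods nor the labels say whether a library holds tissue of 1 pup or of several. The question put to the data was whether what the dams drank altered expression in the hypothalamus of the offspring.

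Libraries held between 28245360 (CTRL 3) and 46067534 estimated counts. Of 8 arcuate and ventromedial markers, 7 passed the filter (a CPM above 1 in at least 4 libraries). Their list summed to 124 to 143 CPM in CTRL and 117 to 181 CPM in Emul. Markers of neighbouring regions were not compared, so this does not test how the MBH was dissected. Of the other marker lists, the 8 microglial genes summed to 229 to 248 CPM in CTRL and 231 to 243 CPM in Emul, with 0 of 8 past an unadjusted p of 0.05 by limma-voom. The 7 endothelial genes summed to 174 to 222 and 187 to 209 CPM, with Slco1a4 alone past that p (lower). The astrocyte genes summed to 1355 to 1469 and 1215 to 1348 CPM (1 of 5 lower, Gfap), the myelin genes to 10585 to 13474 and 8462 to 11327 CPM (3 of 4 lower), the neuronal genes to 2041 to 2226 and 2199 to 2381 CPM (3 of 4 higher), and the immediate early genes to 248 to 308 and 153 to 251 CPM (5 of 11 lower). Genes of T cells, in which Tnfrsf25 is best known, were scarce: 2 of 7 passed the filter, and the list summed to 4.58 to 5.27 CPM in CTRL and 5.33 to 6.99 CPM in Emul. Of 4 genes of meningeal fibroblasts, 5 of red blood cells and the 2 of 4 choroid plexus genes that passed the filter, 0 were past that p. No marker was at 0 in all 9 libraries. At an unadjusted p under 0.05 by limma-voom, 8.99% of all genes tested were lower in Emul and 6.84% were higher. The part of these marker genes in the values below was not tested. In whole tissue, fewer cells of a type and less RNA per cell cannot be told apart.

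The levels of the 10 genes spanned more than an order of magnitude in every library. Each level is summed over all transcripts of a gene, including those not annotated as protein-coding. Per length of transcript, in TPM, the inhibitor genes Nfkbia (33.8 ± 4.08, SD, n = 9) and Nfkbib (30.7 ± 1.62) stood highest, followed by Rela (25.2 ± 3.22) and Nfkb1 (20.04 ± 1.45). Nfkbia and Nfkbib encode the IkB proteins that hold the canonical dimer, whose parts Rela and Nfkb1 encode. Tnfrsf1a, the main receptor for TNF, was at 9.65 ± 0.88 TPM. Relb, the partner of Nfkb2 in the non-canonical arm, was at 3.79 ± 0.52 TPM, Nfkbiz at 3.50 ± 0.50 TPM and Nfkb2 at 2.25 ± 0.46 TPM. The lowest levels were those of Tnfrsf25 (2.23 ± 0.93 TPM) and Tnfaip3 (1.26 ± 0.27 TPM). The canonical genes thus stood above the non-canonical ones, and both stood above Tnfaip3.

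In an exact sign-flip permutation test of the log2 TPM difference within libraries (two-sided, Benjamini-Hochberg over the 9 neighbouring pairs), 6 of 9 neighbours in this order differed beyond their spread. Nfkb1 exceeded Tnfrsf1a by 1.06 ± 0.095 (SD, n = 9) on the log2 scale, and Tnfrsf1a exceeded Relb by 1.35 ± 0.22, each in 9 of 9 libraries, with an adjusted p = 0.0088 in the exact test. The smallest unadjusted p that 9 libraries allow is 0.0039. These levels also hold transcripts not annotated as protein-coding. Among the protein-coding ones, Nfkb1-201, Nfkb1-203 and Nfkb1-206 had mean TPM of 2.22, 3.01 and 2.86, and Tnfrsf1a-201 had 8.99. Rela-201 had 11.3, Nfkbia-201 26.5 and Nfkbib-202 29.6. Tnfrsf25-201 and Tnfrsf25-202 had 0.55 and 0.42, and Tnfaip3-201 had 1.01. The order over protein-coding transcripts alone was not tested and can differ from the one given. The neighbours that did not differ in the exact test were Nfkbia and Nfkbib (adjusted p = 0.080, Nfkbia higher in 7 of 9 libraries), Relb and Nfkbiz (adjusted p = 0.19, 6 of 9), and Nfkb2 and Tnfrsf25 (adjusted p = 0.46, 4 of 9). Their order is therefore not settled by these libraries, and that of Nfkb2 and Tnfrsf25 turned between the groups: Tnfrsf25 had the higher mean in CTRL (3.15 against 2.68 TPM) and the lower in Emul (1.496 against 1.90 TPM).

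**Figure D1:**
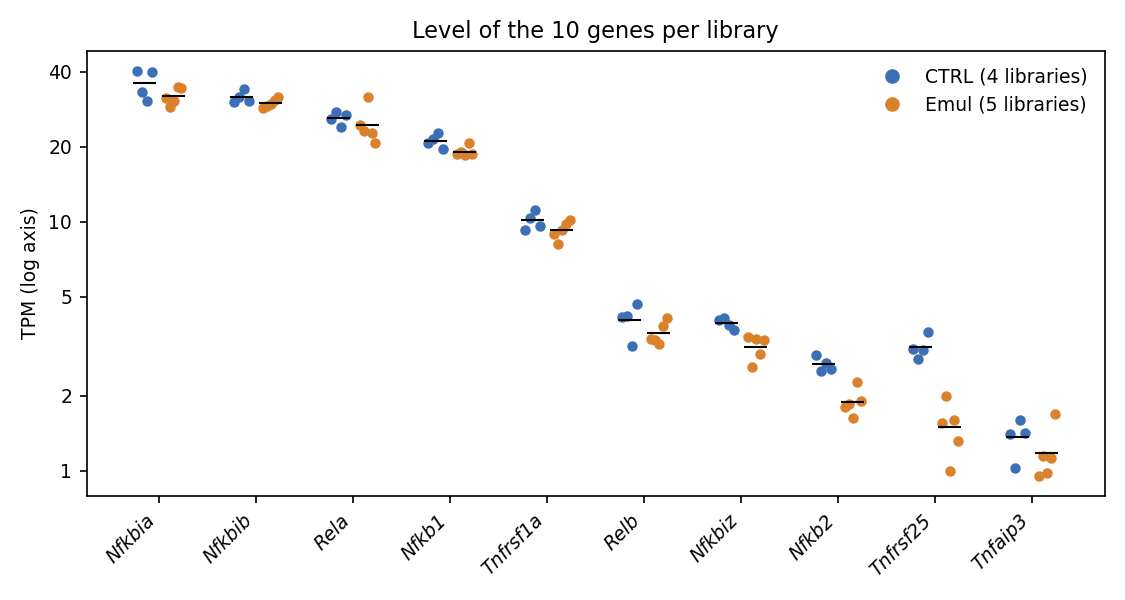
Level of each gene in TPM, summed over all its transcripts, in the 4 CTRL and 5 Emul libraries. The axis is log and genes are ordered by the mean of log2 TPM. Points are libraries and bars are group means. On this scale the Emul points of Nfkbiz, Nfkb2 and Tnfrsf25 all lie below the CTRL points, at 1.00 to 2.00 against 2.82 to 3.61 TPM for Tnfrsf25. TPM lacks the scaling between libraries used for log2 CPM. The mean TPM of Nfkbib is also lower in Emul, at a log2 fold change of 0.03.

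Between the groups, 9 of the 10 genes were lower in Emul, with a median log2 fold change of -0.10, while 49.2% of all genes tested were lower, with a median of 0.0015. The size of the difference was under 0.25 on the log2 scale for 7 of the 10. The study used a p under 0.05 with more than a 1.5-fold difference, and names that p in its methods without an adjustment and in a legend as an FDR. Applied here to the unadjusted p, this cutoff was passed by 0.469% of all genes tested and by 1 of the 10, Tnfrsf25. An unadjusted p under 0.05 by limma-voom was reached in the lower direction by 8.99% of all genes and by 4 of the 10 (Tnfrsf25, Nfkb2, Nfkbiz and Tnfaip3), and in the higher direction by 6.84% of all genes and by 0 of the 10. Which genes were among the lower ones depended on the values used. Nfkb2 was not in the table of the authors or with the transcripts of lower Ensembl number alone (the limit is given with the processing), Tnfaip3 was not in that table or with counts scaled from TPM by length, and Nfkbiz was not by DESeq2. Rela was in that table, and both Nfkb1 and Rela were with the transcripts of lower Ensembl number. At an adjusted p under 0.05, limma-voom called 0.117% of all genes and 0 of the 10, DESeq2 called 2.22% of all genes and 0 of the 10, and edgeR's quasi-likelihood test called 0.209% of all genes and, of the 10, Tnfrsf25. The 5 Emul libraries were all lower than every CTRL library in 3.8% of all genes and in 2 of the 10, Tnfrsf25 and Nfkb2. Because the 10 genes were chosen with this comparison in view, nothing is read from these shares.

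**Figure D2:**
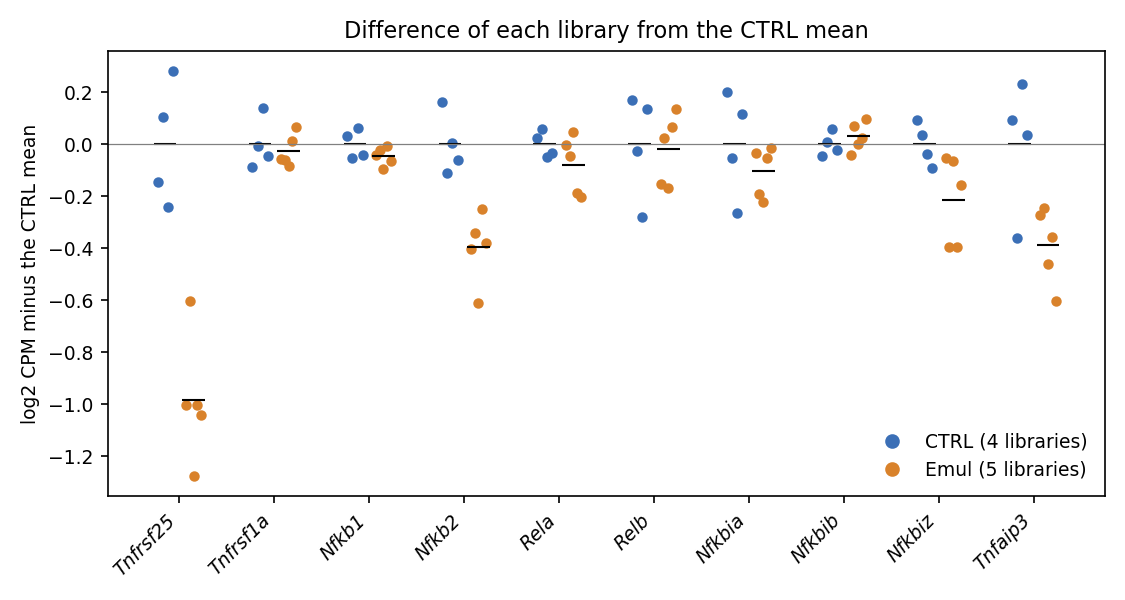
Log2 CPM of each library minus the mean of the CTRL libraries for each gene. Points are the 4 CTRL and 5 Emul libraries and bars are group means. The Emul points of Tnfrsf25 and Nfkb2 all lie below the CTRL points, and the groups overlap for the other 8 genes.

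Tnfrsf25 encodes death receptor 3, the receptor of the cytokine that Tnfsf15 encodes, and lies at chr4:152115934-152120119 on the + strand (GENCODE M21, mm10). It had 49, 63, 34 and 75 estimated counts in the CTRL libraries and 27, 38, 21, 31 and 24 in the Emul libraries. On the log2 CPM scale it was at 0.41, 0.66, 0.31 and 0.84 in CTRL and at -0.45, -0.05, -0.72, -0.44 and -0.49 in Emul. The groups did not overlap on that scale, although in raw counts the shallowest CTRL library fell below the highest Emul library. The log2 fold change was -1.04 (SE 0.18), or 2.06-fold lower in Emul. The gene passed the filter only through the 4 CTRL libraries, since 0 of 5 Emul libraries exceeded a CPM of 1, so a gene that passed in this way had to differ. With any CTRL library left out it no longer met the filter, and with the filter relaxed to 3 libraries its log2 fold change then lay between -1.11 (without CTRL 3) and -0.94 (without CTRL 4). In the log2 CPM table of the authors the difference was -0.95, again without overlap (0.50 to 0.88 in CTRL and -0.80 to 0.20 in Emul).

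Counts this low leave the transcripts of Tnfrsf25 poorly resolved. The protein-coding transcripts Tnfrsf25-201 and Tnfrsf25-202 held 45.2% ± 12.5 and 26.8% ± 9.0 (SD, n = 4) of its counts in CTRL, and 35.5% ± 32.2 and 40.0% ± 36.1 (SD, n = 5) in Emul. Tnfrsf25-201 held 0 counts in Emul 5 and Tnfrsf25-202 held 0 in Emul 4, so the split between them varied across the Emul libraries over nearly its whole range. Their sum was at 0.75 to 1.24 CPM in CTRL and 0.40 to 0.67 CPM in Emul, without overlap, and the 2 transcripts of other types summed to 0.30 to 0.50 and 0.06 to 0.25 CPM, also without overlap. The lower value in Emul was seen in both classes, while Tnfrsf25-201 and Tnfrsf25-202 taken singly each overlapped between the groups. This adds no support, since the gene was chosen on this comparison and passed the filter through CTRL alone. Of the genes within 1 kb, Plekhg5, 533 bases away on the same strand, had a log2 fold change of -0.01 (SE 0.050) and an adjusted p of 0.93 by limma-voom, and Espn, 211 bases away on the other strand, one of 0.14 (SE 0.15, adjusted p = 0.69).

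The genes whose deviations from the group means were most like those of Tnfrsf25 over the 9 libraries were Snrpd3 (r = 0.971), Nat8l (0.970), Orai3 (0.964), Siglech (0.963) and Zfp120 (0.957), the highest of 15339 genes compared. These r values are a description without a test, and libraries share depth and normalization across all genes. The log2 fold changes of these 5 genes lay between -0.03 and 0.11.

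Tnfrsf1a, at chr6:125349362-125362484 on the + strand, encodes the receptor through which TNF engages the canonical arm in most cells. It was at 3.22, 3.30, 3.44 and 3.26 log2 CPM in CTRL and at 3.25, 3.24, 3.22, 3.32 and 3.37 in Emul, which overlap over most of their range. The log2 fold change was -0.02 (SE 0.064), and 1 transcript, Tnfrsf1a-201, held 98.0% ± 1.3 of its counts in CTRL and 98.1% ± 1.8 in Emul. The 2 receptors therefore had unlike values, and their difference from each other was not tested because both were chosen on this contrast. Plekhg6, 175 bases from it on the other strand, did not pass the filter.

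Of the 4 Rel family genes, Nfkb2 differed most when all transcripts were summed. With the transcripts of lower Ensembl number Rela differed more, and in the table of the authors both Rela and Relb did. Nfkb2 is described first. It encodes the precursor that is cut to the p52 subunit of the non-canonical dimer, and lies at chr19:46304320-46312385 on the + strand. It was at 2.36, 2.09, 2.21 and 2.14 log2 CPM in CTRL and at 1.80, 1.86, 1.59, 1.95 and 1.82 in Emul. All Emul values lay below all CTRL values, with a log2 fold change of -0.39 (SE 0.099), or 1.31-fold. Behind these values stood 112 to 195 estimated counts per library.

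This difference depended on which transcripts were counted. Nfkb2-206 held 54.2% ± 3.0 of the counts in CTRL and 53.1% ± 12.4 in Emul, and Nfkb2-202 held 30.4% ± 6.9 and 37.3% ± 13.98, all protein-coding. Nfkb2-206 was at 2.97, 2.17, 2.50 and 2.29 CPM in CTRL and at 2.26, 2.05, 1.59, 1.24 and 1.97 CPM in Emul, with 1 Emul library inside the CTRL range. Nfkb2-202 was at 1.67, 1.17, 1.03 and 1.68 CPM in CTRL and at 0.80, 0.85, 1.18, 2.15 and 1.52 CPM in Emul, so that the highest value of all was in Emul. The sum over protein-coding transcripts did separate the groups, at 3.98 to 4.86 CPM in CTRL and 2.96 to 3.82 CPM in Emul. With the transcripts of lower Ensembl number alone, which leaves out Nfkb2-206, the log2 fold change was -0.19 and the groups overlapped. In the log2 CPM table of the authors Nfkb2 was at 0.89, 0.82, 0.21 and 0.91 in CTRL and at -0.12, -0.06, 0.63, 1.52 and 0.75 in Emul. There the difference was -0.16, with Emul 4 above all CTRL libraries, and how the authors summed transcripts is not given in the sources used here. Nfkb2 overlaps Psd on the other strand, a gene at 7.58 log2 CPM in CTRL and 7.53 in Emul (log2 fold change -0.05, SE 0.033, adjusted p = 0.53 by limma-voom). The libraries were strand-specific, but whether the counting used the strand is not given in the sources used here. It also overlaps AC114539.1 on the other strand.

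**Figure D3:**
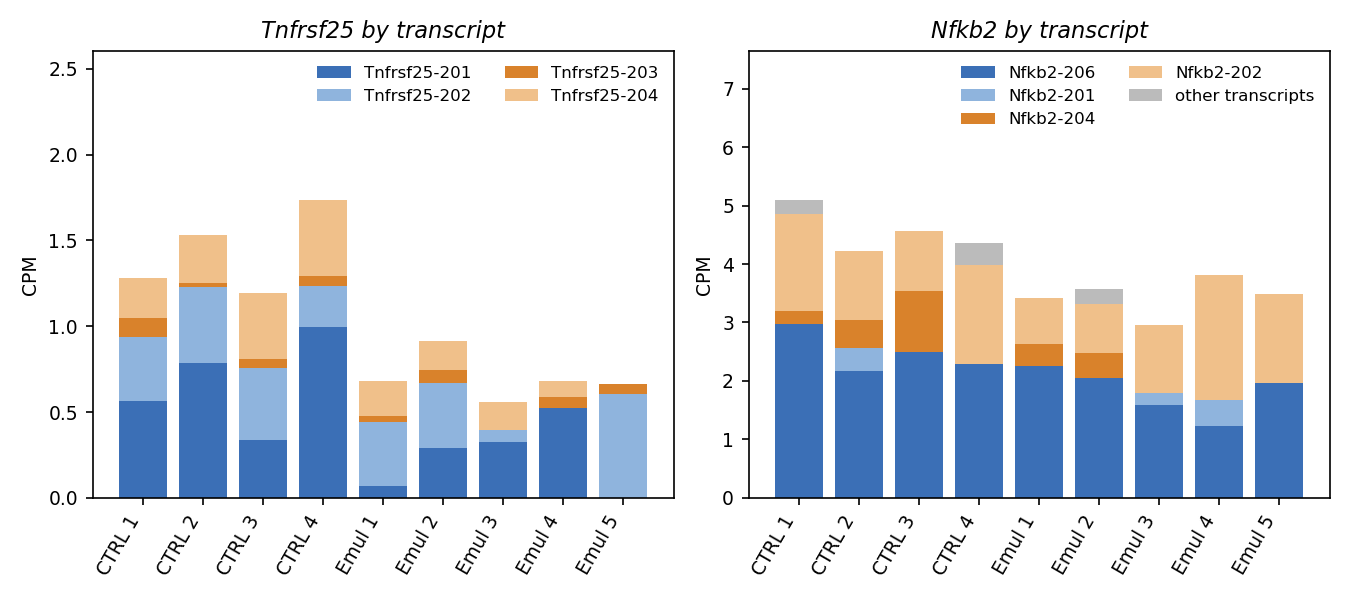
CPM of the transcripts of Tnfrsf25 (left) and Nfkb2 (right), stacked for each of the 4 CTRL and 5 Emul libraries, with the height of a bar as the gene's total. Totals of both genes are lower in all Emul libraries, while single transcripts such as Nfkb2-202 cross between the groups.

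The genes of the canonical dimer were close between the groups when all transcripts were summed. Nfkb1 (chr3:135584655-135691547, - strand), the gene of the p50 subunit and its precursor, was at 4.91, 4.82, 4.94 and 4.83 log2 CPM in CTRL and at 4.84, 4.86, 4.78, 4.87 and 4.81 in Emul, with a log2 fold change of -0.04 (SE 0.040). Rela (chr19:5637483-5648130, + strand), the gene of the p65 subunit, was at 4.56, 4.60, 4.49 and 4.50 in CTRL and at 4.53, 4.49, 4.59, 4.35 and 4.33 in Emul, with a log2 fold change of -0.08 (SE 0.058). The groups overlapped for both genes, with the lowest values in Emul and the highest in CTRL.

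Much of the Nfkb1 and Rela signal sat on transcripts that are not annotated as protein-coding. For Nfkb1 these held 54.6% ± 7.2 of the counts in CTRL and 57.8% ± 5.7 in Emul, with a transcript annotated for nonsense-mediated decay, Nfkb1-209, at 20.998% ± 7.7 and 26.4% ± 7.6. For Rela they held 28.3% ± 1.6 and 33.8% ± 6.1. Rela-201, the main protein-coding transcript, was at 15.72 to 17.35 CPM in CTRL and 13.71 to 15.80 CPM in Emul, where 4 of 5 Emul libraries lay below all CTRL libraries. With the transcripts of lower Ensembl number alone, Nfkb1 was lower by a log2 fold change of -0.18 and Rela by one of -0.20, and the table of the authors gave -0.16 and -0.20. Nfkb1 also overlaps Gm43430 on its own strand.

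Relb (chr7:19606217-19629438, - strand), whose product pairs with p52, was at 2.19, 2.00, 1.74 and 2.16 log2 CPM in CTRL and at 1.87, 2.05, 1.85, 2.09 and 2.16 in Emul, with a log2 fold change of -0.04 (SE 0.11). The lowest and the highest of these values were both in CTRL. In the log2 CPM table of the authors Relb differed by -0.20, and the groups overlapped. Its counts moved between transcripts from library to library: Relb-201 held 18.3% ± 25.6 of them in CTRL and 6.9% ± 9.2 in Emul, and Relb-203 held 16.5% ± 23.3 and 31.2% ± 18.2. Values of single Relb transcripts are therefore uncertain, and why the counts moved was not tested.

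Of the inhibitor genes, Nfkbia and Nfkbib code for the classical IkB-alpha and IkB-beta. Nfkbia (chr12:55489410-55492647, - strand) was at 4.72, 4.47, 4.26 and 4.64 log2 CPM in CTRL and at 4.49, 4.33, 4.30, 4.47 and 4.51 in Emul, with a log2 fold change of -0.12 (SE 0.083). Nfkbib (chr7:28758251-28767512, - strand) was at 4.13, 4.19, 4.24 and 4.16 in CTRL and at 4.14, 4.25, 4.18, 4.20 and 4.28 in Emul, with a log2 fold change of 0.03 (SE 0.046). Nfkbib was the only one of the 10 genes that was not lower in Emul, and the groups overlapped for both genes. Nfkbib overlaps Sirt2 on the other strand, a gene expressed at 8.61 log2 CPM in CTRL and 8.45 in Emul (log2 fold change -0.16, SE 0.069, adjusted p = 0.27 by limma-voom), and Ccer2, also on the other strand (-0.23, SE 0.14, adjusted p = 0.46).

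Nfkbiz (chr16:55811375-55838899, - strand) encodes a nuclear, inducible IkB protein that modifies which target genes respond. It was at 2.74, 2.68, 2.61 and 2.55 log2 CPM in CTRL and at 2.59, 2.25, 2.58, 2.25 and 2.49 in Emul. Emul 2 and Emul 4 were lowest, and Emul 1 and Emul 3 lay inside the CTRL range. The log2 fold change was -0.22 (SE 0.096), and in the table of the authors, where it was also -0.22, the groups did not overlap (2.70 to 2.83 in CTRL and 2.34 to 2.69 in Emul). In TPM they did not overlap either, at 3.68 to 4.12 in CTRL and 2.61 to 3.46 in Emul. TPM lacks the scaling between libraries used for log2 CPM, however. Nfkbib, with a log2 fold change of 0.03, also had a lower mean TPM in Emul (30.0 against 31.7).

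Tnfaip3 (chr10:19000910-19015657, - strand) encodes A20, the ubiquitin-editing enzyme that ends NF-kB signalling. It was at 1.71, 1.25, 1.84 and 1.65 log2 CPM in CTRL and at 1.34, 1.37, 1.15, 1.26 and 1.01 in Emul. CTRL 2 lay among the Emul libraries, and the other 3 CTRL libraries lay above all of them. The log2 fold change was -0.37 (SE 0.14), and without CTRL 2 it was -0.50. In the table of the authors it was -0.12, with Emul 5 at 2.00, the highest value of the 9, against 1.01, the lowest, from the summed counts. With counts scaled from TPM by length (lengthScaledTPM) it was likewise -0.12. In Emul 5 the short transcript Tnfaip3-203 (490 bases) held 4.99 counts, and Tnfaip3 stood at 1.69 TPM, the highest of the 9 libraries. The part of these few counts in the length-scaled value was not tested. Of its counts, Tnfaip3-201 held 90.2% ± 3.6 in CTRL and 83.1% ± 9.8 in Emul.

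**Figure D4:**
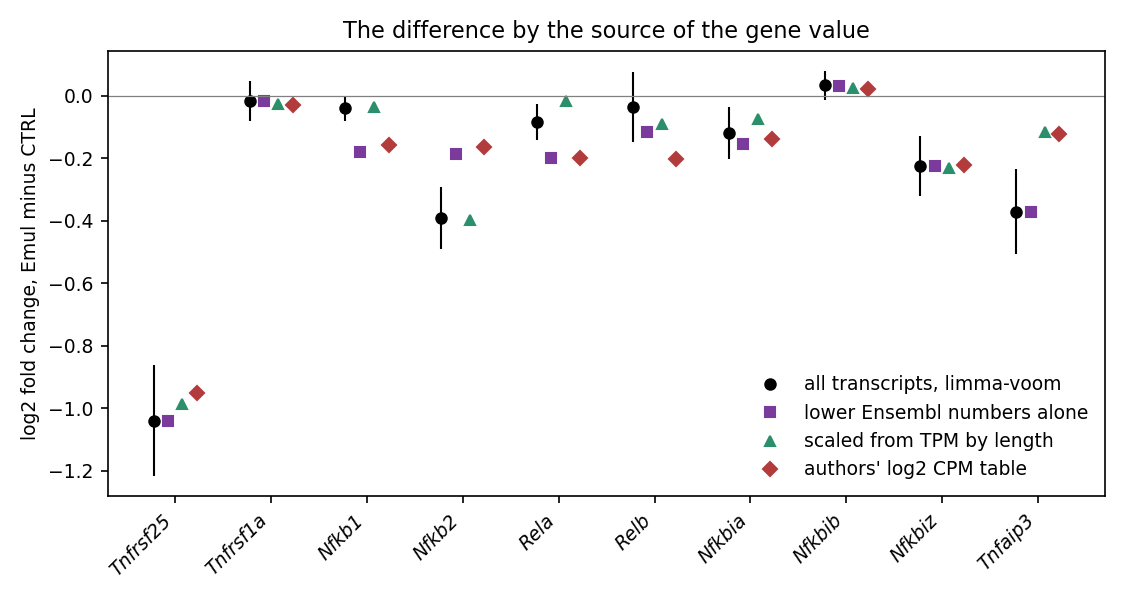
Log2 fold change (Emul minus CTRL) of the 10 genes from all transcripts by limma-voom with its SE (bars), from the transcripts of lower Ensembl number, from counts scaled from TPM by length, and from the log2 CPM table of the authors. Tnfrsf25 lies at -1.04 to -0.95 over the 4 sources. It has no transcript of higher Ensembl number, so the first 2 sources hold the same counts for it. Nfkb2 moves from -0.39 to -0.16 and Tnfaip3 from -0.37 to -0.12.

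The promoters of NF-kB genes are known to hold sites for NF-kB itself, so that inhibitors and subunits are made in response to the pathway. RefSeq windows on GRCm38.p6, from 250 bases before to 50 bases after a start, were found for 7 of the 10 genes (11 windows), and for Nfkb1, Relb and Nfkbiz there was none. The kappaB consensus of 10 bases was searched on both strands, overlapping matches included, and 8.459% of the 32851 such windows of all genes held at least 1 match. Among the windows of these genes, 2 of which overlap, 6 of 11 did, from 4 genes: Tnfrsf25, Nfkb2, Nfkbia and Tnfaip3. The 150 bases before the start are shown for Tnfrsf25, the gene with the largest difference, for Nfkb2, which also did not overlap between the groups, and for the feedback genes Nfkbia and Tnfaip3, 5' to 3' with matches in capitals.
Tnfrsf25 (first start, chr4:152115784-152115933, + strand): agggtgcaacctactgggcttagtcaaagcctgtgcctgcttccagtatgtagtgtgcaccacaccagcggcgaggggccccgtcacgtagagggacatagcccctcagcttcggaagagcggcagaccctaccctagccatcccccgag
Tnfrsf25 (second start, chr4:152116193-152116342, + strand): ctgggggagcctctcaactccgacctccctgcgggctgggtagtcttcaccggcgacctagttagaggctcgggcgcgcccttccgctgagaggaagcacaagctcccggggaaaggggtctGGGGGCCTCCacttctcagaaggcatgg
Nfkb2 (first start, chr19:46304587-46304736, + strand): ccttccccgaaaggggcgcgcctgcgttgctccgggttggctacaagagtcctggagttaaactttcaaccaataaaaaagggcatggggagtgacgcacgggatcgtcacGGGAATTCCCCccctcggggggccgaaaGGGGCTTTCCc
Nfkbia (chr12:55492648-55492797, - strand): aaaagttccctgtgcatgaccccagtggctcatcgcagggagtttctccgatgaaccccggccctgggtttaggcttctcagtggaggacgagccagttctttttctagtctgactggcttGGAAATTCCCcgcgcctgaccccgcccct
Tnfaip3 (first start, chr10:19015411-19015560, - strand): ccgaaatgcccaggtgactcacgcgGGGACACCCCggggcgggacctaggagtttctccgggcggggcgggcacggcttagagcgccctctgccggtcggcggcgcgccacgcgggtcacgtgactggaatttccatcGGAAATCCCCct

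The Nfkb2 window held 3 matches, of which 2 overlap at -39 to -29 from the start and the last lies at -11 to -2. The Nfkbia match lay at -29 to -20, and those of Tnfaip3 at -125 to -116 and -12 to -3. Tnfrsf25 held no match at its first start and matches at -28 to -19 and, past the bases shown, at 36 to 45 around its second. The windows of Tnfrsf1a, Rela and Nfkbib and the second one of Tnfaip3 held none, and the other 2 windows of Nfkb2, which overlap and share 1 match, held 2 and 1. A match is a description of letters and no evidence of binding. Genes with matches had log2 fold changes from -1.04 (Tnfrsf25) to -0.12 (Nfkbia, SE 0.083). The 3 genes with a window and no match had values from -0.08 (Rela, SE 0.058) to 0.03 (Nfkbib). Nfkbiz, at -0.22, had no window. These values are given side by side without a test. Nothing is read from them, since the genes were chosen on this difference.

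How the 10 genes varied together from litter to litter was examined in the deviations from the group means, which do not hold the difference between the groups. Of 45 pairs, 18 had a positive r, 5 had an unadjusted p under 0.05 in an exact permutation test within groups (two-sided, 2880 permutations), and 0 had an adjusted p under 0.05 (Benjamini-Hochberg over the 45 pairs, lowest 0.27). The highest was that of Relb and Nfkbia (r = 0.82, exact permutation p = 0.019, rho = 0.87, exact permutation p = 0.014, n = 9), which was 0.50 without the 2 libraries farthest from the median. Nfkb1 and Nfkb2, both targets and parts of NF-kB, had r = 0.77 (exact permutation p = 0.016, rho = 0.77, exact permutation p = 0.032, n = 9) and 0.90 without 2 libraries. Both pairs had an adjusted p of 0.27 in the exact permutation test, so no pair was shown to vary together at this number of libraries.

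The other genes of the pathway were taken from 8 lists of 134 genes, of which 98 passed the filter. These lists too were chosen with earlier results of these data known. Their p-values and counts, here and in the paragraphs below, are therefore descriptions, and nothing is read from them. At an unadjusted p under 0.05 by limma-voom, 12 of the 98 were lower in Emul and 1 was higher, beside 8.99% and 6.84% of all genes. With library size alone in place of TMM scaling, 20 were lower, beside 14.7% of all genes under that scaling. At an adjusted p under 0.05, limma-voom called 0 of the 98, edgeR's quasi-likelihood test 0, and DESeq2 2 (Rel and Map3k14), a share close to its 2.22% of all genes. The cutoff with more than a 1.5-fold difference was passed by 0 of the 98, and the median log2 fold change was -0.03. The Emul libraries were all lower than every CTRL library in 6 of the 98 genes, beside 3.8% of all genes. They were all higher in 1, Tnfrsf11a, and no share of all genes was taken for that direction.

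**Figure D5:**
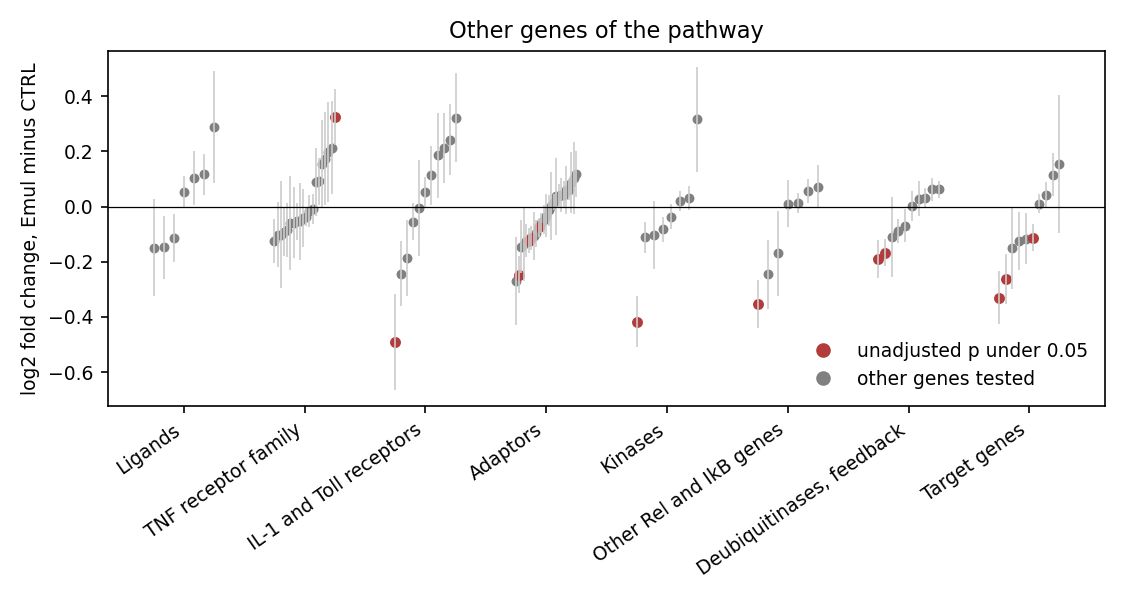
Log2 fold change (Emul minus CTRL) with its SE for the 98 other pathway genes tested, in 8 lists, red where the unadjusted p by limma-voom is under 0.05. Of the red points 12 are lower in Emul and 1 is higher, and they are spread over 7 of the 8 lists.

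Ligands were scarce, and 15 of 22 did not pass the filter. Tnf, the ligand of Tnfrsf1a, had 0 to 2 counts in the 9 libraries, and Tnfsf15, the ligand of Tnfrsf25, had 7.3 to 33.7. Of the 7 ligands tested 0 passed an unadjusted p of 0.05, and the smallest p was that of Il33, a cytokine released from damaged cells (log2 fold change 0.12, SE 0.073, adjusted p = 0.46 by limma-voom). A change in ligand expression was therefore not detectable for Tnf at this depth.

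Of the other TNF receptor family, 20 of 26 genes passed the filter, and Tnfrsf11a alone had an unadjusted p under 0.05. Tnfrsf11a, the receptor RANK, was at 2.21, 2.21, 2.37 and 1.98 log2 CPM in CTRL and at 2.40, 2.37, 2.66, 2.45 and 2.63 in Emul. All Emul values lay above all CTRL values, by a log2 fold change of 0.32 (SE 0.10) and an adjusted p of 0.18 by limma-voom. Tnfrsf1b, the second receptor for TNF, had a log2 fold change of -0.12 (SE 0.079) and an adjusted p of 0.47 by limma-voom. Among 11 receptors of the IL-1 and Toll families, Il1rl1, the receptor for IL-33, had the smallest p (-0.49, SE 0.17, adjusted p = 0.21 by limma-voom), at 29.3 to 70.8 counts.

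The adaptors had 4 of 25 genes lower at an unadjusted p under 0.05. Ripk1, the kinase scaffold at the TNF receptor, was at 3.37, 3.41, 3.56 and 3.399 log2 CPM in CTRL and at 3.13, 3.26, 3.18, 3.07 and 3.28 in Emul. These values did not overlap, with a log2 fold change of -0.25 (SE 0.066) and an adjusted p of 0.15 by limma-voom. Tradd, which links both receptors of the TNF family described here to Ripk1, had a log2 fold change of 0.04 (SE 0.14) and an adjusted p of 0.93 by limma-voom.

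Of 8 kinases, 1 had an unadjusted p under 0.05, Map3k14, which encodes NIK, the kinase of the non-canonical arm that drives processing of the Nfkb2 product. It was at 2.41, 2.63, 2.56 and 2.67 log2 CPM in CTRL and at 2.20, 2.35, 2.03, 2.07 and 2.14 in Emul. The groups did not overlap, with a log2 fold change of -0.42 (SE 0.091) and an adjusted p of 0.10 by limma-voom, the smallest p of all 98 genes. The genes of the IKK complex, Chuk (-0.11, SE 0.055), Ikbkb (-0.08, SE 0.046) and Ikbkg (-0.04, SE 0.045), had adjusted p-values of 0.35, 0.41 and 0.73 by limma-voom, and their groups overlapped.

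Rel, the fifth Rel family gene and the source of c-Rel, was at 3.05, 3.399, 3.06 and 3.17 log2 CPM in CTRL and at 2.77, 2.97, 2.76, 2.78 and 2.87 in Emul. The groups did not overlap, with a log2 fold change of -0.35 (SE 0.086) and an adjusted p of 0.11 by limma-voom, and of the 7 genes tested in its list it was the only one with an unadjusted p under 0.05. Of 10 deubiquitinase and feedback genes 2 were lower at that p, Spata2, which brings the deubiquitinase CYLD to the receptor complex, with the smaller p (-0.17, SE 0.048, adjusted p = 0.16 by limma-voom).

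Of 20 target genes 10 passed the filter, and the inducible Ccl2, Cxcl10, Il6, Nos2 and Ptgs2 were among those that did not. At an unadjusted p under 0.05, 3 of the 10 were lower. Cebpd, a transcription factor gene induced in glia by inflammatory signals, was at 3.04, 2.70, 2.74 and 2.94 log2 CPM in CTRL and at 2.67, 2.45, 2.68, 2.50 and 2.38 in Emul. The groups did not overlap, although CTRL 2 and Emul 3 lay next to each other, with a log2 fold change of -0.33 (SE 0.096) and an adjusted p of 0.17 by limma-voom. The remaining genes with an unadjusted p under 0.05, named after their values were seen, were Irak1, Tab2, Rnf31, Otud7b, Irf1 and Csf1, all lower, by log2 fold changes of -0.26 (Irf1) to -0.08 (Irak1).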

How the data were processed

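Strand-specific mRNA libraries of 9 MBH samples were sequenced by the authors, who used kallisto (0.46.1 by the submitters' processing notes) with mm10 as reference and deposited, for each of 119414 transcripts, an estimated count and a TPM value. The authors also deposited gene values as log2 CPM, whose summing over transcripts is not given in the sources used here. Estimated counts were summed per gene through GENCODE M21, which matched 97.8% of the transcripts. The 1.20% to 1.27% of counts on other transcripts were left out. Genes whose CPM exceeded 1 in 4 or more libraries were compared by limma-voom (limma 3.58.1, edgeR 4.0.16 for TMM, R 4.3.3) without covariates. P-values were adjusted over all these genes (Benjamini-Hochberg). Log2 CPM values of single libraries hold a prior count of 2, and log2 TPM a pseudocount of 0.01. P-values measure the spread between litters as the methods give them.

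The 10 genes and all lists were chosen with earlier results of these data known. Genes named from the lists are those past the cutoff or an adjusted p under 0.05, the smallest p of each list, and Tnf, Tnfsf15, Tnfrsf1b, Tradd, Ikbkb, Chuk, Ikbkg and Rel, with the 5 genes most like Tnfrsf25 and genes within 1 kb of the 10. As alternatives, the counts were also run through limma-trend, DESeq2 1.42.0 and edgeR's quasi-likelihood test, with other scalings and filters, mitochondrial genes left out, lengthScaledTPM, transcripts with an Ensembl number under 195750, the authors' table, a replicate block, and each library left out. Leaving out CTRL libraries with a CPM above 1 asked of 3 libraries was added after seeing the data. The fits and permutation tests were checked on simulated data.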

Additional observations from a re-analysis of the deposited data

How the results depend on the processing

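Tnfrsf25 had log2 fold changes of -1.14 to -0.94 over the 21 alternatives in which it was tested, which adds no support, since it was chosen on this comparison and passed the filter through CTRL alone. Leaving out 1 library gave 0 to 1 of the 10 genes past the cutoff, 0 only where a CTRL library left Tnfrsf25 under the filter, 2 to 4 genes lower at an unadjusted p under 0.05, and a median log2 fold change of -0.15 to -0.06. It gave 10 to 13 other pathway genes lower, 1 to 4 higher, 0 past the cutoff, and 6 to 7 neighbours that differed in level. Shares of all genes at an unadjusted p were taken only for the main fit and for library size alone. Counts at that p under the other settings therefore have no such share beside them. With CTRL 1 left out the 10 genes held 2 lower under either filter, but not the same 2. They were Nfkb2 and Tnfaip3 under the main filter and Tnfrsf25 and Nfkb2 under the relaxed one. With CTRL 2 or CTRL 3 left out, 2 were lower under the main filter and 3 under the relaxed one. With Emul 1 or Emul 2 left out 4 pathway genes were higher.

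The median of the 10 genes was -0.18 with transcripts of lower Ensembl number and -0.16 in the authors' table, where Nfkb2 moved to -0.19 and -0.16. Other pathway genes lower in Emul numbered 20 with library size alone, which moved the median of all genes to -0.03. Those higher numbered 2 with edgeR, DESeq2, no filter on low counts and the authors' table. Without the filter 1 of 133 pathway genes, Ltb, passed the cutoff, beside 681 of all 27632 genes tested. At an adjusted p under 0.05, DESeq2 called 341 genes of all tested and limma-voom 18, and the cause was not tested.

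Replicate numbers did not pair the samples (r of same-numbered deviations -0.163, -0.015, 0.021 and -0.055). With the number as a block, 4 of the 10 genes (Tnfrsf25, Nfkb2 and Nfkbiz, with Nfkbia in place of Tnfaip3) and 9 other pathway genes were lower, the median was -0.10, and Il1rl1 no longer passed an unadjusted p of 0.05 (log2 fold change -0.40). Tnfrsf25 rests on 21 to 75 counts per library, so its transcripts are not resolved at this depth.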
